A study of Ovis aries with 6 samples.

Results

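Cadherins are membrane proteins that join neighbouring cells through calcium-dependent contacts between their extracellular repeats. Type I and type II cadherins bind catenins on the inner side of the membrane, and the catenins connect them to actin. Protocadherins, FAT and Dachsous cadherins, CELSR receptors and calsyntenins carry the same kind of repeat on other cytoplasmic tails, and in brain tissue the superfamily is known for sorting neurons, guiding axons and building synapses.

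The genes described here are the rows whose gene name is a numbered cadherin, a protocadherin, FAT1 to FAT4, DCHS1 or DCHS2, CELSR1 to CELSR3 or CLSTN1 to CLSTN3, with CDH1 left out. There were 49 of them among 26067 features. They were compared between 3 small-tailed Han sheep, the high-reproduction group (HP), and 3 Wadi sheep, the low-reproduction group (LP), in tissue labelled hypothalamus from healthy animals. The labels give no age, sex, season or treatment, and breed and reproductive class are the same split. Full-length cDNA was PCR-amplified and sequenced on an Oxford Nanopore instrument.

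The 6 libraries held 1981644 to 2732911 counts. Columns C1 to C6 were assigned to the samples titled x1 to x6 through the number alone, the only part of the names that matches. The tissue label was checked against defining markers. Of 16 hypothalamic neuron genes, GNRH1, KISS1, HCRT and NKX2-1 had no count in any library, and TRH was the only one that passed the filter on low counts. TRH stood at 88.2, 137 and 108 CPM in HP and had no count in LP. Against a floor of 3 counts per library this is at least 73.6-fold higher (adjusted p = 4.59e-04). All 11 tested anterior pituitary markers were lower in HP, with a summed level of 45.5 to 134 CPM (counts scaled to library size) in HP and 49492 to 376000 CPM in LP, and NR5A1, PITX1, POU1F1, TBX19 and TSHB were among those with no count in HP. All 10 tested cerebellar granule cell markers were higher in HP, with a summed 4419 to 5093 CPM in HP and 172 to 451 CPM in LP. LP replicate 3 stood apart with 3387 CPM of oligodendrocyte markers, against 2.07 to 6.45 CPM in the other LP libraries, and LP replicate 1 with 5285 CPM of mural cell and fibroblast markers, against 293 and 1240 CPM. Ependyma and choroid plexus markers summed to 115, 121 and 4086 CPM in HP replicates 1, 2 and 3. In LP replicates 1, 2 and 3 they summed to 76.0, 85.0 and 7761 CPM. TTR alone stood at 4056 CPM in HP replicate 3 and 7671 CPM in LP replicate 3. Of the microglia list 5 of 6 tested genes were lower in HP. Over all genes tested, 27.1% were called higher in HP and 24.1% lower. These shares stand beside each count of called genes given here or below. In bulk tissue fewer cells of a type and less RNA per cell cannot be told apart, and this holds for every gene below.

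Of the 49 genes, 25 passed the filter on low counts and were tested, and 24 did not pass it. In the quasi-likelihood fit of edgeR, with p-values adjusted by Benjamini and Hochberg's method over 13078 genes and a threshold of 0.05, 12 of the 25 were called (48.0%, where the share over all genes tested was 51.2%). All adjusted p-values below come from that test unless another tool is named or the value is from the deposited TPM, which was tested with limma. Higher in HP were 8 of the 25 (32.0%), and 4 were lower in HP (16.0%). Over all genes tested, 27.1% were higher in HP and 24.1% were lower, so the members' shares lay near the background. The 3 HP values lay wholly above the 3 LP values in 10 members and wholly below them in 4, together 56.0%. Over all genes tested 33.9% lay above and 29.0% below, together 62.9%. The median log2 fold change, HP minus LP, was 0.84 over the 25 members and 0.02 over all genes tested. This median leaves out the 24 members not tested, of which 15 had more counts over the LP libraries and 6 more over the HP libraries. In the fit without a filter on low counts 3 of them were called lower in HP and 0 higher. The share of calls that were higher in HP was 52.9% over all genes tested, against 63.0% with library totals alone and 36.2% with the deposited TPM.

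**Figure D1:**
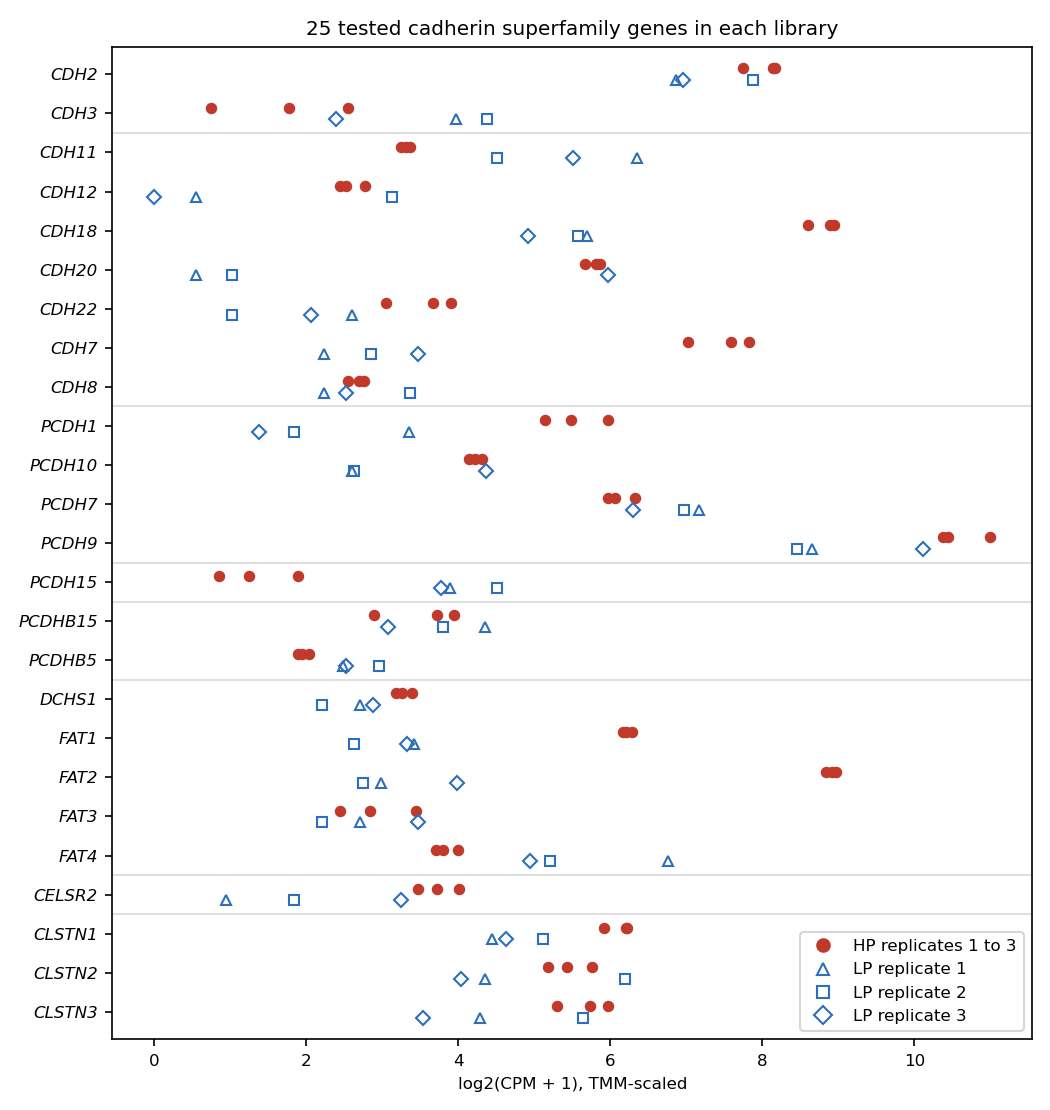
Level of each of the 25 tested genes in each library, as log2(CPM + 1) on the horizontal axis, with filled red circles for the 3 HP libraries and open blue symbols for the 3 LP libraries, and grey lines between families. FAT2, CDH18, CDH7, PCDH1 and FAT1 have their HP points far to the right of the LP points, whereas CDH11, PCDH15 and FAT4 have theirs to the left.

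Few genes held most of the counts of the superfamily. Summed over the 49 genes, the TMM-scaled level was 4072, 3286 and 3111 CPM in HP replicates 1, 2 and 3, and 1124, 1111.5 and 1769 CPM in LP replicates 1, 2 and 3. The HP sums all lay above the LP sums. PCDH9 alone took 50.2%, 40.5% and 44.5% of these counts in the HP libraries and 35.8%, 31.4% and 62.6% in the LP libraries. Without PCDH9 the summed level was 2029, 1956 and 1725 CPM in HP and 722, 762 and 661 CPM in LP. Counts are not divided by transcript length, so these are shares of counts and not an order of levels between genes.

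Among type I cadherins, CDH2 encodes N-cadherin, the classical cadherin of neurons and of many neural contacts. CDH2 stood at 286, 280 and 213 CPM in HP, against 115, 234 and 123 CPM in LP. Both lower LP values lay below every HP value, while LP replicate 2 lay inside the HP range. The difference was a log2 fold change of 0.72 ± 0.32 (SE, n = 3 per group) and was not called (adjusted p = 0.0943). Without LP replicate 2 the log2 fold change was 1.09 and passed (adjusted p = 0.0105), and with library totals in place of TMM factors it was 1.01 (adjusted p = 0.0179).

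CDH3 encodes P-cadherin, known from epithelia. It had 12, 7 and 2 counts in HP, against 32, 38 and 8 in LP. The groups overlapped after scaling, since LP replicate 3, at 4.24 CPM, lay between HP replicates 1 and 2. CDH3 was 4.92-fold lower in HP (adjusted p = 0.0359). The call was lost without HP replicate 2 (adjusted p = 0.113), HP replicate 3 (0.0924), LP replicate 1 (0.0757) or LP replicate 2 (0.0772), and without HP replicate 1 the log2 fold change was -3.03 instead of -2.30. Testing by limma-voom (adjusted p = 0.0514) or without a filter on low counts (0.0559) ended the CDH3 call too. Epithelial markers moved with it, with 3 of 3 tested genes lower in HP, a summed 38.8 to 42.8 CPM in HP and 271 to 1764 CPM in LP, and CLDN7 and ESRP1 at 0 in HP. Their part in this difference was not tested. CDH4, which encodes R-cadherin, had no count in any library, and CDH15, the M-cadherin gene of muscle and cerebellar granule cells, had 2 counts in HP and 0 in LP.

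Type II cadherins differed from each other in direction. Of 13 genes, 7 were tested, and CDH7, CDH18 and CDH22 were higher in HP, CDH11 was lower, and CDH8, CDH12 and CDH20 were not called. These proteins pair selectively among themselves and mark groups of neurons and nuclei in the developing brain.

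CDH7 stood at 225, 192 and 128 CPM in HP, against 3.68, 6.22 and 10.1 CPM in LP. The lowest HP value was well above the highest LP value. CDH7 was 27.3-fold higher in HP, a log2 fold change of 4.77 ± 0.43 (SE, n = 3 per group, adjusted p = 5.76e-04). CDH18 had a high level in HP as well, at 490, 471 and 386 CPM, against 50.6, 46.6 and 29.1 CPM in LP. Its groups lay far apart, and the gene was 10.6-fold higher in HP (adjusted p = 4.82e-04). CDH22, a cadherin gene expressed in brain, had 18, 34 and 41 counts in HP, against 11, 2 and 6 in LP. The lowest HP value was close to the highest LP value after scaling, at 7.28 and 5.06 CPM. CDH22 was 3.47-fold higher in HP (adjusted p = 0.0260). That call was lost without HP replicate 2 (adjusted p = 0.0754) or HP replicate 3 (0.0776), and with the deposited TPM.

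Granule cell and neuronal markers moved with CDH7 and CDH18. The neuron list had 6 of 8 tested genes called higher in HP, with a summed 4620 to 5262 CPM in HP and 451 to 1119.8 CPM in LP, and of the Purkinje cell list 6 of 7, with 2762 to 3701 CPM in HP and 457 to 902 CPM in LP. The granule cell gene BARHL1 and the Purkinje cell gene SLC1A6 had no count in LP. The part of these cell types in the differences of CDH7, CDH18, PCDH1, FAT1 and FAT2 was not tested.

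CDH11 encodes a type II cadherin of mesenchymal cells, also found in brain. It stood at 9.31, 8.92 and 8.49 CPM in HP, against 80.6, 21.8 and 44.5 CPM in LP. The HP libraries were close together and all below the LP libraries, of which replicate 1 was highest. CDH11 was 5.48-fold lower in HP (adjusted p = 0.00522). Mural cell and fibroblast markers had 4 of 7 tested genes lower in HP. Their sum was 137, 254 and 289 CPM in HP replicates 1, 2 and 3, and 5285, 293 and 1240 CPM in LP replicates 1, 2 and 3. The LP libraries had the same order as for CDH11, and the HP libraries did not. No gene of that list was at 0 in either group, and the list's part in the difference was not tested.

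CDH20 and CDH19 varied widely among the LP libraries. CDH20 stood at 49.8, 55.3 and 57.4 CPM in HP, against 0.460, 1.04 and 61.4 CPM in LP. LP replicate 3 was thus above every HP library while the other LP libraries held 1 and 2 counts. No difference between the groups was called (log2 fold change 1.38 ± 1.27, SE, adjusted p = 0.389), and without LP replicate 3 it was 6.06 (adjusted p = 6.9e-05). With all libraries limma-voom called CDH20 higher in HP, at a log2 fold change of 3.91 (adjusted p = 0.0272). CDH19, known from Schwann cells and oligodendrocyte lineage cells, had 4, 4 and 6 counts in HP, against 34, 2 and 162 in LP, and was not tested because too few libraries reached the minimum. It lay highest in LP replicate 3, the library with the most oligodendrocyte marker counts, and stood at 1.62, 1.37 and 2.04 CPM in the HP libraries, which held 66.9 to 160 CPM of these markers. Of the oligodendrocyte list 0 of 3 tested genes were called, MYRF was at 0 in HP, and the list's part in these values was not tested. CDH19 and CDH7 are next to each other among the protein-coding genes of the RefSeq assembly used for names. CDH7 was higher in every HP library than in every LP library. For CDH19, 162 of the 198 LP counts came from LP replicate 3, and LP replicate 2, at 1.04 CPM, lay below every HP library.

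Of the other type II genes, CDH12 had 11, 17 and 14 counts in HP, against 1, 15 and 0 in LP. LP replicate 2, at 7.77 CPM, lay above every HP library and the other LP libraries lay below them all, and without LP replicate 2 the log2 fold change was 4.06 instead of 0.88 and passed (adjusted p = 0.00595, against 0.470 with all libraries). CDH8 had 12, 16 and 17 counts in HP, against 8, 18 and 9 in LP, and its log2 fold change was -0.13 ± 0.42 (SE). CDH5, the VE-cadherin of endothelial junctions, had 0, 2 and 2 counts in HP, against 6, 2 and 7 in LP. These counts were too low for a test, at or near the 3 counts that stand for 1.10 to 1.51 CPM in these libraries. The endothelial list had 1 of 7 tested genes higher in HP and 2 lower. CDH6 had no count in HP and 3, 6 and 4 in LP. CDH9 and CDH10, neighbours in the RefSeq assembly, had 20 and 28 counts over the HP libraries and 13 and 17 over the LP libraries, of which 16 of the 20 for CDH9 came from HP replicate 1. CDH24 had none in any library.

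None of the 5 cadherins outside both types could be tested. CDH13 encodes T-cadherin, which is held to the membrane by a lipid anchor and binds adiponectin. It had 8, 3 and 1 counts in HP, against 27, 7 and 2 in LP. The groups overlapped, and 27 of the 36 LP counts came from LP replicate 1. CDH23, a tip-link cadherin of hair cells, had 6 counts over the HP libraries and 16 over the LP libraries, and CDH16 and CDH26 had 0 over the HP and 4 and 2 over the LP libraries. CDH17 had no count.

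**Figure D2:**
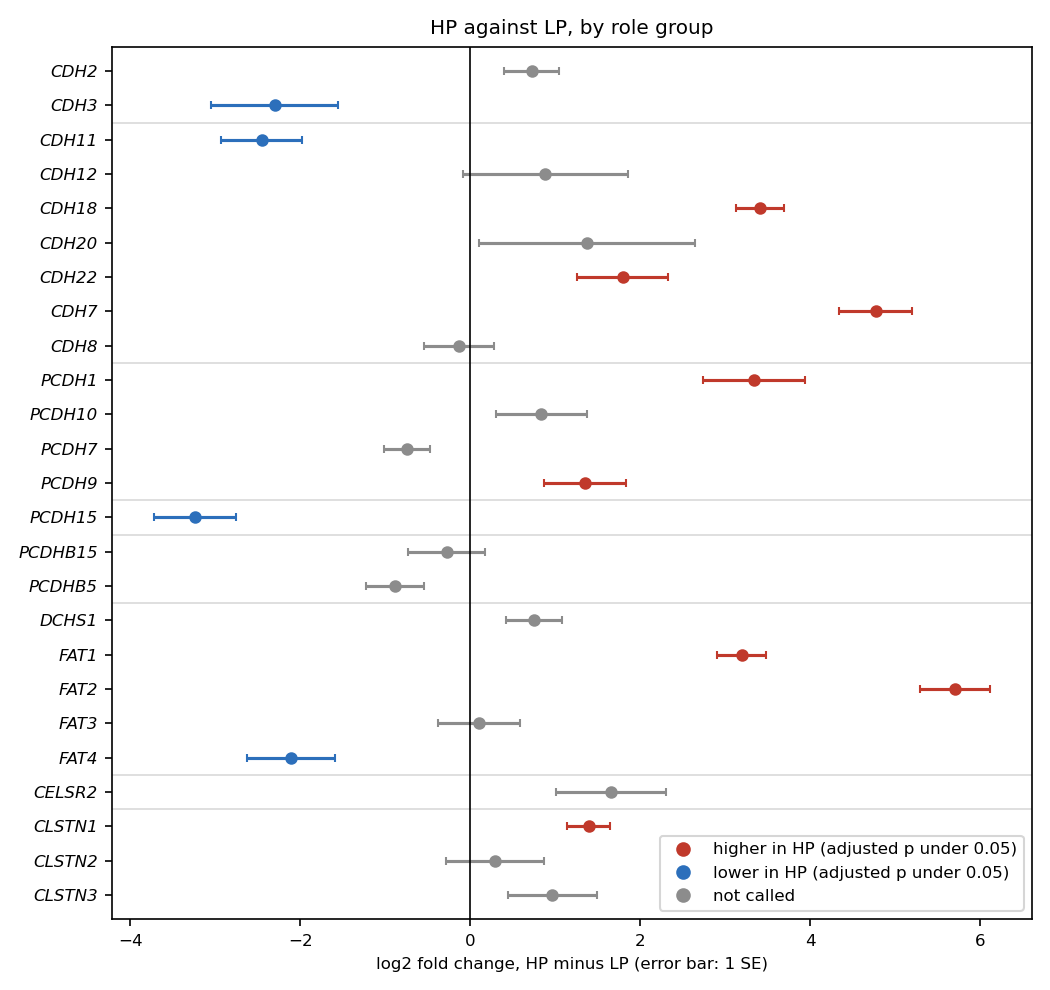
Log2 fold change, HP minus LP, of each of the 25 tested genes with 1 SE, ordered by family and separated by grey lines, in red for genes higher in HP, blue for genes lower in HP and grey for genes not called. FAT2 at 5.71 and CDH7 at 4.77 lie furthest to the right, and PCDH15 at -3.23 furthest to the left.

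Delta protocadherins are single-gene protocadherins that act in cell sorting and axon growth. Of 8 genes 4 were tested, and PCDH1 and PCDH9 were higher in HP while PCDH7 and PCDH10 were not called. PCDH1 stood at 61.9, 43.6 and 34.3 CPM in HP, against 9.21, 2.59 and 1.59 CPM in LP. The groups did not overlap, and PCDH1 was 10.1-fold higher in HP (log2 fold change 3.34 ± 0.60, SE, adjusted p = 0.00391). Without LP replicate 1, which held 20 of the 28 LP counts, the log2 fold change was 4.44.

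PCDH9 stood at 2043, 1330.0 and 1386 CPM in HP, against 403, 349 and 1108 CPM in LP. The HP values lay above the LP values, but LP replicate 3 came near them. PCDH9 was 2.56-fold higher in HP and lay at the edge of the threshold (adjusted p = 0.0498). It missed the threshold without any single library other than LP replicate 3, with adjusted p of 0.151, 0.0923 and 0.0886 without HP replicates 1, 2 and 3 and of 0.134 and 0.102 without LP replicates 1 and 2. It also did not pass with a minimum of 10 counts in 3 libraries (log2 fold change 1.35). Without LP replicate 3 the log2 fold change was 2.02 instead of 1.36 (adjusted p = 9.84e-04).

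PCDH10 had the same kind of split in LP as CDH20. It stood at 16.6, 18.9 and 17.7 CPM in HP, against 5.06, 5.18 and 19.6 CPM in LP, with LP replicate 3 above every HP value. Its log2 fold change was 0.84 ± 0.54 (SE, adjusted p = 0.223), and 1.73 without LP replicate 3 (adjusted p = 0.00306). In the deposited TPM with pseudocount 1 it was 3.04 and passed (adjusted p = 0.0480, limma). Astrocyte markers were also highest in LP replicate 3 among the LP libraries, with a summed 445 to 601 CPM in HP, against 56.6, 34.7 and 720 CPM in LP replicates 1, 2 and 3. No gene of the astrocyte list was at 0 in either group and 0 of its 5 tested genes were called, and the part of astrocytes in these values was not tested.

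PCDH7 stood at 65.6, 61.8 and 79.4 CPM in HP, against 143, 124 and 77.8 CPM in LP. LP replicate 3 fell inside the HP range. The log2 fold change was -0.74 ± 0.27 (SE) and just missed the threshold (adjusted p = 0.0550), and it passed without LP replicate 3 (-1.01, adjusted p = 0.00486), with DESeq2 (-0.78, adjusted p = 0.0486) and with scaling that left out genes above 1% of a library (-0.81, adjusted p = 0.0478). PCDH18, a further delta protocadherin gene, had 0, 1 and 1 counts in HP, against 17, 6 and 7 in LP. It did not pass the minimum for a test, and in the fit without a filter on low counts its adjusted p was 0.00916. PCDH17 had 6 counts over the HP libraries and 10 over the LP libraries, PCDH19 had 2 and 4, and PCDH8 had 1 and 0. PCDH19, the X-linked gene of a human epilepsy, was therefore at the detection limit in these libraries.

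PCDH15 encodes a tip-link protein of hair cells. It had 2, 4 and 8 counts in HP, against 30, 42 and 24 in LP. All LP values were well above all HP values, and PCDH15 was 9.41-fold lower in HP (adjusted p = 0.00212). PCDH20 had 1, 2 and 3 counts in HP, against 7, 6 and 6 in LP, and PCDH12, an endothelial protocadherin gene, had 0, 1 and 0 in HP, against 2, 3 and 1 in LP. Neither was tested.

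Clustered protocadherins are encoded by tandem arrays from which single neurons use different sets of genes. By name the rule held 4 of them, all of the beta array, and 2 were tested. PCDHB15 had 30, 42 and 19 counts in HP, against 42, 25 and 14 in LP, with overlapping groups and a log2 fold change of -0.27 ± 0.45 (SE, adjusted p = 0.634). PCDHB5 stood at 2.83, 3.09 and 2.72 CPM in HP, against 4.60, 6.74 and 4.76 CPM in LP. Its values did not overlap, but the log2 fold change of -0.88 ± 0.34 (SE) was not called (adjusted p = 0.0642). In the deposited TPM PCDHB5 passed as lower in HP, at -0.28 with pseudocount 1 and -1.06 with pseudocount 0.1 (adjusted p = 0.0328 and 0.0127, limma). PCDHB7 had 43 counts over the HP libraries and 16 over the LP libraries, PCDHB1 had 3 and 6, and neither was tested.

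A further 26 loci carry a LOC name and a protein annotation that reads protocadherin in the authors' deposited table, 22 of them of the alpha, beta or gamma arrays. They lie outside the rule and were listed after their values had been seen. Of the 22, 11 were tested, with 0 higher in HP, 1 lower and a median log2 fold change of -0.27. The gene called was LOC101102726, annotated as protocadherin beta-17-like, with 3, 5 and 8 counts in HP, against 26, 47 and 25 in LP (adjusted p = 0.00223). The summed level of the 22 loci was 245, 269 and 257 CPM in HP, against 225, 402 and 226 CPM in LP. The HP values lay inside the LP range. Reads of near-identical copies in these arrays could be split between genes in counting, so single members are uncertain.

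FAT and Dachsous cadherins are giant cadherins that set tissue growth and planar cell polarity, with DCHS proteins as ligands of FAT4. Of 6 genes 5 were tested, and FAT1 and FAT2 were higher in HP, FAT4 was lower, and FAT3 and DCHS1 were not called. FAT2, known from cerebellar granule cells, stood at 483, 499 and 456 CPM in HP, against 6.91, 5.70 and 14.8 CPM in LP. The HP libraries were close to each other and far above the LP libraries. FAT2 was 52.3-fold higher in HP, a log2 fold change of 5.71 ± 0.41 (SE, adjusted p = 3.42e-04). FAT1 stood at 76.9, 70.7 and 72.7 CPM in HP, against 9.67, 5.18 and 9.00 CPM in LP. FAT1 was 9.16-fold higher in HP (adjusted p = 5.79e-04), with no overlap between the groups.

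FAT4 had 32, 35 and 44 counts in HP, against 233, 69 and 56 in LP, or 13.3 ± 1.49 CPM in HP and 57.6 ± 43.2 CPM in LP (SD, n = 3 each). All LP libraries were higher, and LP replicate 1 by the widest margin. FAT4 was 4.32-fold lower in HP (log2 fold change -2.11 ± 0.52, SE, adjusted p = 0.0125). Without LP replicate 1 the log2 fold change was -1.29, and without HP replicate 1 or 2 the call was lost (adjusted p = 0.0528 and 0.0540). LP replicate 1 was also the library with the most mural cell and fibroblast marker counts. FAT4 stood at 35.8 and 29.6 CPM in LP replicates 2 and 3, in the opposite order to the marker sum of 293 and 1240 CPM. The part of these cell types in the FAT4 difference was not tested. DCHS1 had 20, 25 and 28 counts in HP, against 12, 7 and 12 in LP. Its values did not overlap after scaling, at 8.73 ± 0.718 CPM in HP and 5.17 ± 1.40 CPM in LP (SD, n = 3 each), but it was not called (log2 fold change 0.75 ± 0.33, SE, adjusted p = 0.0945). FAT3 had 11, 18 and 29 counts in HP, against 12, 7 and 19 in LP, with a log2 fold change of 0.10 ± 0.48 (SE), and DCHS2 had 6 counts over the HP libraries and 15 over the LP libraries, 12 of them in LP replicate 3.

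**Figure D3:**
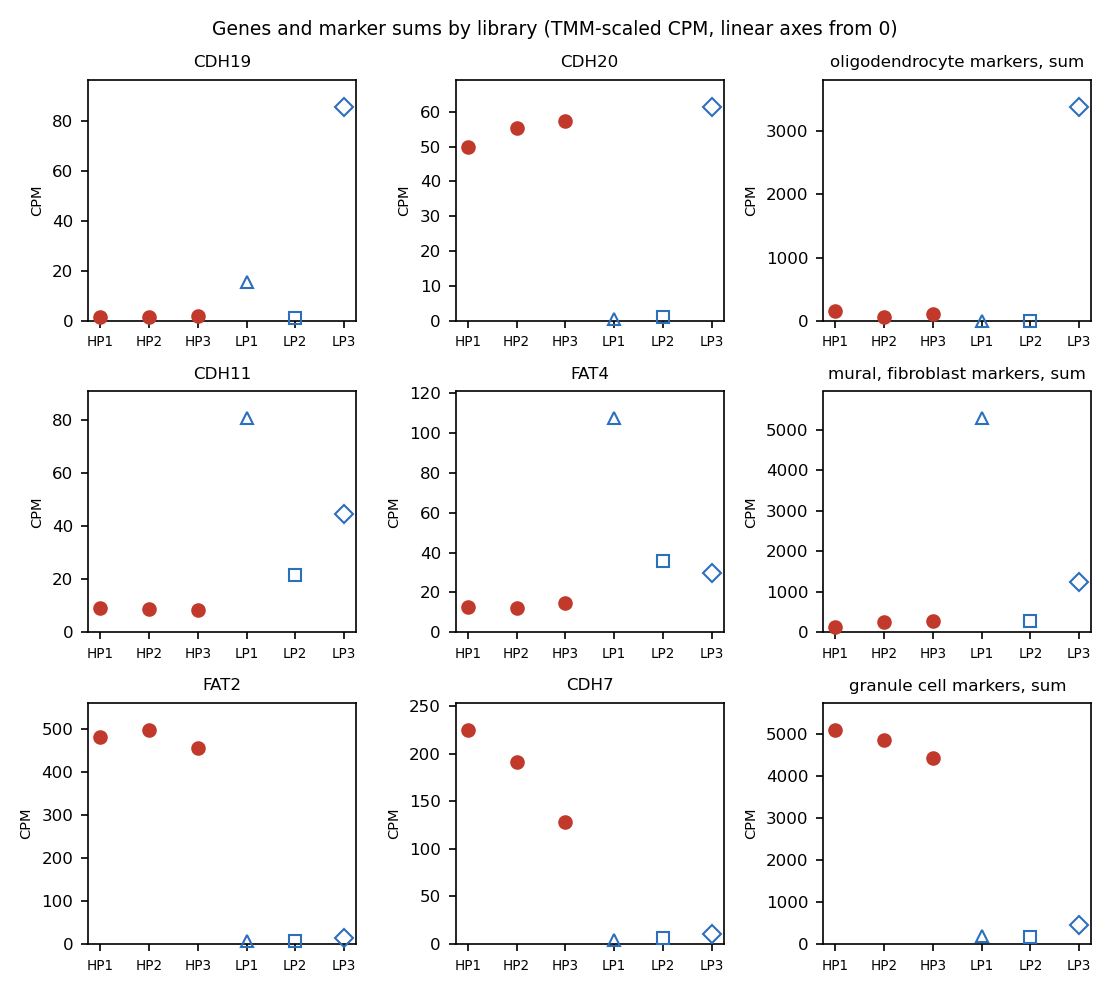
TMM-scaled CPM in each library of CDH19, CDH20, CDH11, FAT4, FAT2 and CDH7, each row ending with the summed CPM of a marker list, with filled circles for HP and open symbols for LP on linear axes that start at 0. CDH19 and the oligodendrocyte sum are highest in LP replicate 3, CDH11, FAT4 and the mural and fibroblast sum in LP replicate 1, and FAT2, CDH7 and the granule cell sum in the 3 HP libraries.

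CELSR proteins are cadherins with a receptor domain of the adhesion GPCR class, and they act in planar polarity and axon tract formation. CELSR2, known from postmitotic neurons, stood at 10.1, 15.1 and 12.2 CPM in HP, against 0.921, 2.59 and 8.47 CPM in LP. The groups did not overlap, but LP replicate 3 was near the HP values, and the log2 fold change of 1.66 ± 0.65 (SE) was not called (adjusted p = 0.0654). It passed without LP replicate 3 (2.78, adjusted p = 0.00303), with limma-voom (2.08, adjusted p = 0.0282) and with DESeq2 (1.64, adjusted p = 0.0493). CELSR3 had 2, 2 and 4 counts in HP, against 1, 1 and 0 in LP, and CELSR1 had 0 in HP and 1, 3 and 0 in LP. Neither was tested, and both stood near the detection limit.

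Calsyntenins are postsynaptic cadherin-like proteins, and calsyntenin-1 links vesicles to kinesin for transport along axons. CLSTN1 stood at 73.2, 59.4 and 73.0 CPM in HP, against 20.7, 33.7 and 23.8 CPM in LP. The groups lay apart, and CLSTN1 was 2.63-fold higher in HP (log2 fold change 1.39 ± 0.26, SE, adjusted p = 0.00437). CLSTN2 stood at 35.2, 53.2 and 42.1 CPM in HP, against 19.3, 72.0 and 15.4 CPM in LP. CLSTN3 stood at 61.5, 38.4 and 52.3 CPM in HP, against 18.4, 48.7 and 10.6 CPM in LP. In both genes LP replicate 2 was the highest LP library, for CLSTN2 above every HP library, and neither gene was called (adjusted p = 0.688 and 0.161). Both passed without LP replicate 2, with log2 fold changes of 1.28 for CLSTN2 (adjusted p = 0.0139) and 1.75 for CLSTN3 (adjusted p = 0.00927).

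Ratios between genes of the same library do not depend on scaling between libraries. The pairs given here were chosen after their values had been seen. CDH18 had 1.71, 1.68 and 1.81 counts per count of CDH2 in the HP libraries, and 0.440, 0.200 and 0.236 in the LP libraries. FAT2 had 37.3, 41.5 and 30.5 counts per count of FAT4 in HP, against 0.0644, 0.159 and 0.500 in LP. CDH7 had 24.2, 21.5 and 15.1 counts per count of CDH11 in HP, against 0.0457, 0.286 and 0.226 in LP. CDH2 had 30.8, 31.4 and 25.1 counts per count of CDH11 in HP, against 1.43, 10.7 and 2.77 in LP. In these 4 pairs every HP ratio lay above every LP ratio, and the size of a ratio gives no order of levels between the genes of a pair. For FAT2 over FAT4 and CDH7 over CDH11 this had to be so, because both genes lay apart between the groups in opposite directions. Those ratios therefore repeat the results of the single genes.

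Cadherins work through cytoplasmic partners, and 5 lists of these and of further superfamily receptors held 47 tested genes. Of these, 15 were higher in HP and 13 were lower, or 31.9% and 27.7%, against 27.1% and 24.1% of all genes tested. Catenins and adaptors had 3 of 14 tested genes higher in HP and 4 lower, with a median log2 fold change of -0.42. Of the alpha-catenins, which connect cadherins to actin, CTNNA2 and CTNNA1 went in opposite directions. CTNNA3 was not called (log2 fold change -1.74 ± 0.99, SE, adjusted p = 0.175). CTNNA2, the neuronal form, stood at 1444, 808 and 805 CPM in HP, against 232, 310 and 248 CPM in LP. CTNNA1, the form of epithelia and most other cells, stood at 7.69, 3.78 and 8.15 CPM in HP, against 76.4, 107 and 72.0 CPM in LP. CTNNA2 was 3.87-fold higher in HP and CTNNA1 12.9-fold lower (adjusted p = 0.00270 and 6.65e-04), without overlap in either gene. CTNNA2 had 188, 214 and 98.8 counts per count of CTNNA1 in the HP libraries, and 3.03, 2.91 and 3.44 in the LP libraries. That these ratios lie apart follows from the values of the single genes.

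Of the delta-catenins, which hold cadherins at the membrane, CTNND2 and CTNND1 also went in opposite directions. CTNND2, the neuronal delta-catenin gene, was 3.20-fold higher in HP (adjusted p = 0.00221). CTNND1, which encodes the widely expressed p120 catenin and lies outside the rule for named genes, had 4, 2 and 9 counts in HP, against 12, 16 and 13 in LP. It was 3.75-fold lower in HP (adjusted p = 0.0179), and missed the threshold when HP replicate 1 or 2 was left out (adjusted p = 0.0656 and 0.0542) and without a filter on low counts (0.0531), and its log2 fold change was -2.56 instead of -1.91 without HP replicate 3. CTNNAL1, an alpha-catenin relative, was 15.3-fold lower in HP (adjusted p = 0.00416). PKP4, a further adaptor gene of the list that was named after its values were seen, was 3.20-fold higher in HP (adjusted p = 0.00186). CTNNB1, which encodes beta-catenin and was likewise named after its values were seen, stood at 79.8 ± 4.39 CPM in HP and 80.3 ± 8.47 CPM in LP (SD, n = 3 each), with a log2 fold change of -0.01 ± 0.19 (SE).

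**Figure D4:**
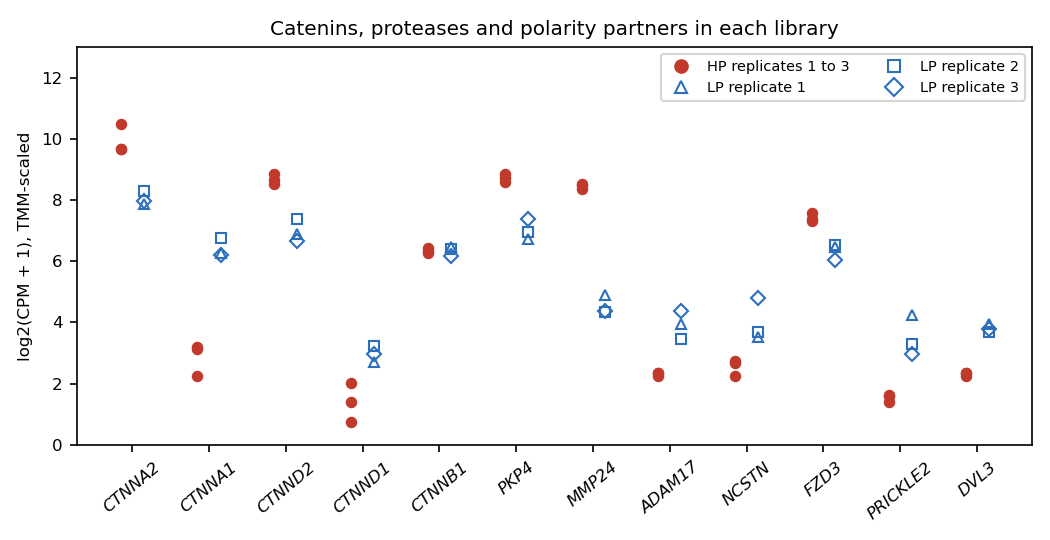
Level of 12 partner genes in each library as log2(CPM + 1), with filled red circles for HP and open blue symbols for LP. CTNNA2, CTNND2, PKP4, MMP24 and FZD3 have all HP points above all LP points, CTNNA1, CTNND1, ADAM17, NCSTN, PRICKLE2 and DVL3 have all HP points below, and CTNNB1 overlaps.

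Partners of protocadherins and of FAT and Dachsous proteins had 7 of 14 tested genes higher in HP and 1 lower. That was 50.0% and 7.14%, against 27.1% and 24.1% of all genes tested. Their median log2 fold change was 0.65. CYFIP2, a neuronal subunit of the WAVE complex that protocadherin tails recruit, was 6.44-fold higher in HP, and its paralogue CYFIP1 was 1.61-fold lower (adjusted p = 0.00117 and 0.0323). CYFIP1 missed the threshold when HP replicate 1, 2 or 3 was left out (adjusted p = 0.106, 0.113 and 0.0623), and likewise LP replicate 1 (0.0900). Scaling by library totals alone ended the call as well (log2 fold change -0.45, adjusted p = 0.184), as did testing without a filter on low counts (-0.49, 0.148) and the deposited TPM with pseudocounts 1 and 0.1 (0.0887 and 0.0883). TAOK2, a kinase gene, was 4.75-fold higher in HP by counts (adjusted p = 5.79e-04), and had a log2 fold change of -0.01 in the deposited TPM. Planar polarity partners had 1 of 6 tested genes higher in HP and 2 lower (16.7% and 33.3%). The one higher in HP was FZD3, a Frizzled receptor gene that acts with CELSR proteins in axon tracts, at 2.10-fold (adjusted p = 0.00614), and PRICKLE2 and DVL3 were 5.77-fold and 3.24-fold lower. VANGL2 had no count in any library.

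Proteases that cut cadherins had 3 of 9 tested genes higher in HP and 5 lower. That was 33.3% and 55.6%, against 27.1% and 24.1% of all genes tested. MMP24, a membrane-bound metalloprotease of neurons that cleaves N-cadherin, was 15.6-fold higher in HP, at 352 ± 21.6 CPM in HP and 22.4 ± 5.30 CPM in LP (SD, n = 3 each, adjusted p = 3.16e-04). ADAM9 was 2.23-fold higher, and missed the threshold when HP replicate 1 or 2 or LP replicate 2 or 3 was left out (adjusted p = 0.108, 0.0870, 0.0848 and 0.0554), and in the deposited TPM with pseudocounts 1 and 0.1 (0.135 and 0.140). ADAM17 was 3.64-fold lower in HP (adjusted p = 0.00509). NCSTN, a subunit of gamma-secretase, the complex that cuts the remaining cadherin stub in the membrane, was 3.27-fold lower in HP (adjusted p = 0.0168, and 0.0690 without HP replicate 2). Among other gamma-secretase genes, chosen after their values were seen, PSENEN was lower in HP at a log2 fold change of -1.51, and APH1A was higher at 0.82, a call lost without each library except LP replicate 3. In the deposited TPM the log2 fold change of APH1A was 0.07 with pseudocounts 1 and 0.1 (adjusted p = 0.865 and 0.861). Among further superfamily receptors, RET, a receptor kinase with cadherin-like repeats, had 118, 105 and 143 counts in HP, against 0, 2 and 5 in LP. It was 35.7-fold higher in HP (adjusted p = 0.00144), with a log2 fold change of 6.30 without LP replicate 3 and 4.55 without LP replicate 1. DSG2, a desmosomal cadherin gene of epithelia, was 8.44-fold lower in HP (adjusted p = 0.00850), and its log2 fold change was -2.21 instead of -3.08 without LP replicate 2.

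The deposited TPM values add a second readout, because TPM by definition scales a count by transcript length. TPM per count was taken for each gene and library, relative to the median gene, where the library had at least 10 counts of the gene. Over the 8209 genes with 10 counts in every library it stayed within 2% across the 6 libraries in 50.1%. The treatment of transcript length behind the TPM is not stated, and why the value changed in other genes was not tested. Of the 13 members with 10 counts in every library, PCDHB15 and CLSTN2 stayed within 2%, and 9 moved by more than 1.5-fold.

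Members fell over a wide range on this scale, with a ratio of 452 between the highest and the lowest of the 13 medians. FAT1 was highest, with 28.0, 21.3 and 22.5 in HP, against 18.1, 23.7 and 21.9 in LP, and CLSTN2 lowest at 0.0491. FAT2 was between them, at 1.01, 0.986 and 1.18 in HP, against 1.12, 2.20 and 1.42 in LP. FAT1 therefore stood at 520, 396 and 522 TPM in HP, above the 118, 129 and 173 TPM of FAT2, although FAT2 had 1194, 1454 and 1343 counts and FAT1 190, 206 and 214. The order of FAT1 and FAT2 thus differed between counts and TPM, and no order of levels between members is given. FAT4 had a median TPM per count of 0.0932 on the same scale. FAT3 and DCHS1, which had at least 10 counts in 5 libraries, had medians of 0.0465 and 0.0666. Which transcripts the FAT1 counts came from was not tested.

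In 6 of the 13 members (CDH18, PCDH7, PCDH9, PCDH10, CLSTN1 and CLSTN3) the TPM per count was higher by more than 2% in every HP library than in every LP library, and in 0 it was lower. Over the 8209 genes 23.3% were higher and 2.31% lower in this way. PCDH7 had 9.46, 10.6 and 6.44 in HP, against 2.46, 3.69 and 2.54 in LP. Its log2 fold change was -0.74 by counts and 0.14 by TPM. PCDH10 had 14.9, 12.7 and 10.0 in HP, against 0.126, 3.16 and 4.22 in LP, where the lowest value, of LP replicate 1, rests on 11 counts. CLSTN1 had 13.1, 12.6 and 9.34 in HP, against 6.76, 8.07 and 6.30 in LP, and CDH18 had 8.01, 7.79 and 7.18 in HP, against 4.18, 4.61 and 6.15 in LP. For both genes the call by counts was kept with TPM.

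**Figure D5:**
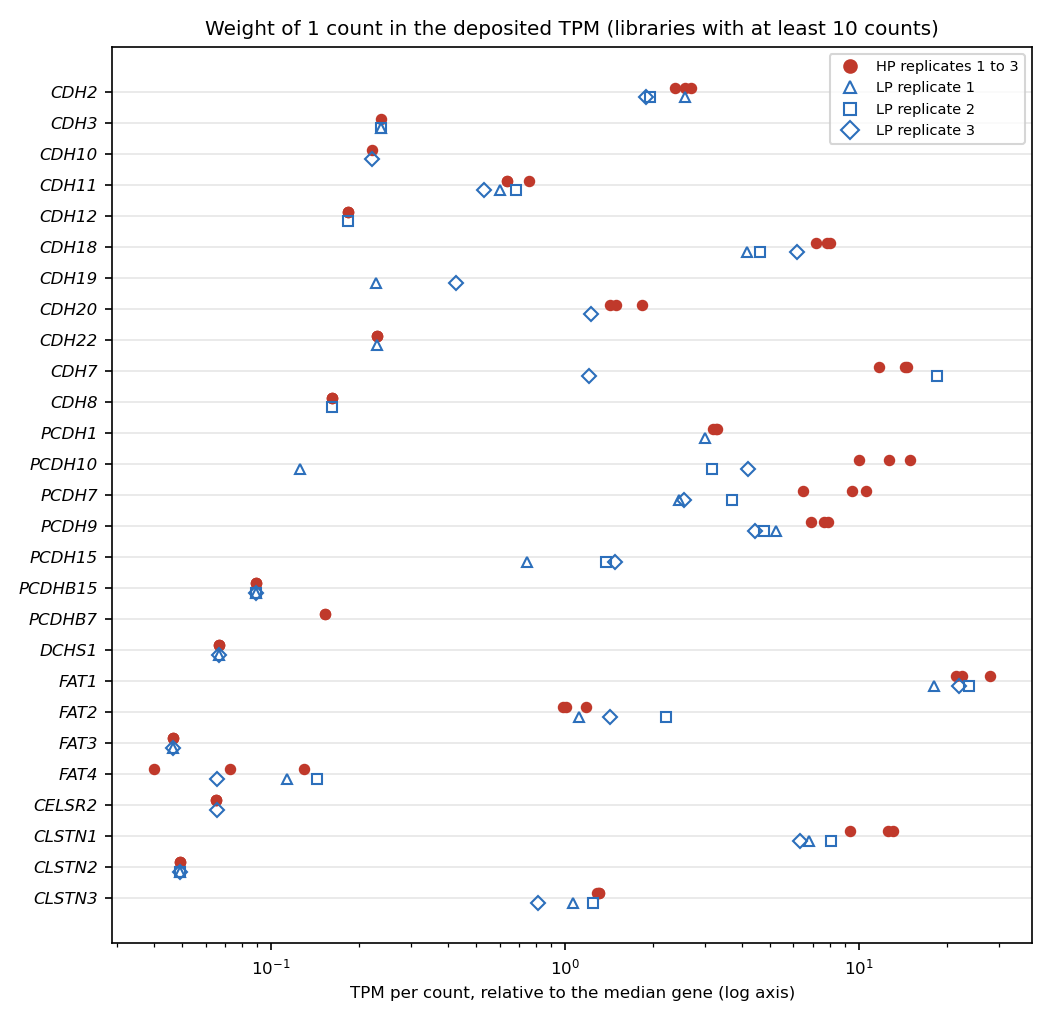
TPM per count of each member that had at least 10 counts in 2 or more libraries, shown for those libraries, relative to the median gene, on a log axis, with filled red circles for HP and open blue symbols for LP. Genes such as CDH3, PCDHB15, DCHS1 and CLSTN2 have all their points at one low value. CDH7, PCDH10 and PCDH7 are spread out most, with PCDH10 as low as 0.126 in LP replicate 1, and FAT1 lies high in a narrower range.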

How the data were processed

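The authors deposited estimated counts per gene, not scaled between samples, and TPM values scaled by the authors to one fixed sum in every sample, both for the same 26067 features. Per the submitters' processing notes, reads were aligned with minimap2 2.17-r941. For the counter, genome build and annotation: not given in the sources used here. Members were taken by gene name, and 46 of the 49 names were found in the RefSeq gene table (ARS-UI_Ramb_v3.0), which served for names and gene neighbours.

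Rounding to whole counts changed library totals by 101 or less. Amplified reads are not independent molecules, so the floor of 3 counts covers counting error only. The test was the quasi-likelihood test of edgeR 4.0.16 (R 4.3.3) on genes kept by filterByExpr, with TMM factors. P-values are adjusted over all 13078 genes tested, are two-sided, and measure the spread between 3 samples per group. Fold changes are HP over LP, and SE is the absolute log2 fold change divided by the root of F. Alternatives used DESeq2 1.42.0, limma 3.58.1 and the deposited TPM. The procedure was tested on simulated data with far fewer changed genes than were called here. That run therefore cannot show how well the scaling held in these data. Members, gene lists and markers were chosen with earlier results of these data known. The text gives each sample's value for called members without overlap, at most 4 per direction and family, and for 8 fixed genes, smallest p first for others, and at most 2 called genes per direction of each partner list. Listed genes without a matching row were not analysed here. A few listed genes are not reported here.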

Additional observations from a re-analysis of the deposited data

How the results depend on the processing

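Under 15 alternatives the calls of CDH7, CDH11, CDH18, PCDH1, PCDH15, FAT1, FAT2 and CLSTN1 were kept in all, and no called member turned its direction. Members higher in HP numbered 8, and 6 to 11 when single libraries were left out. Members higher in LP numbered 4, and 2 to 5 without single libraries. Without a filter on low counts 6 were higher in LP, 3 of them (CDH6, CDH19 and PCDH18) left out of the test by that filter. Partner genes higher in HP numbered 15, and 9 to 12 without single libraries, and those higher in LP 13, and 9 to 14. In the deposited TPM partner genes higher in HP numbered 8 with either pseudocount, 1 or 0.1, and TPM moved the median of all tested genes to -0.31 and -0.40 from 0.02. Library totals alone moved that median to 0.27 and the share of calls higher in HP over all genes to 63.0% from 52.9%, and TPM moved the share to 36.2% and 35.1%. These genes changed sign, all of them uncalled except TAOK2. With library totals alone CTNNB1 was at 0.24 and CDH8 at 0.15 (log2), and without a filter at 0.19 and 0.06. In TPM with pseudocounts 1 and 0.1, FAT3 was at -0.06 and -0.30, CLSTN2 at -0.12 and -0.15, PCDH7 at 0.14 and 0.14, and TAOK2 at -0.01 and -0.01. With single libraries left out, CTNNB1 ranged from -0.14 to 0.06, FAT3 from -0.25 to 0.52, CDH8 from -0.39 to 0.32, PCDHB15 from -0.62 to 0.11 and CLSTN2 from -0.11 to 1.28. The cause was not tested. No paired analysis was possible because the labels number no pairs. The filter on low counts kept 24 members out of the test, CDH19 among them with 162 counts in LP replicate 3, since too few libraries reached the minimum.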
